A study of Ambystoma mexicanum with 12 samples.

Results

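The limbs of 2 aged axolotls gave almost no reads for 22 gene ids that were counted in every blastema and every juvenile limb of the same experiment. The 22 ids were chosen from the count table as those with at most 3 raw counts summed over the 2 aged limbs and at least 5 raw counts in each of 5 blastemas and each of 5 juvenile limbs. Of 99088 ids in the table, 65472 had a count in some library, 15773 had 5 or more counts in each of the 10 blastemas and juvenile limbs, and 24 of these also met the limit on the aged limbs. A pair of these 24, the ids named BTBD8 and TCF23 in the study's tables, was left out because those tables already list them, which leaves the 22. The raw counts of all 3 groups therefore chose the ids, and the low counts in the aged limbs are given here as a description, with no test.

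The aged limbs came from 2 animals of 8 years. The paper states that no samples were taken from the aged animals after amputation, and that they showed no blastema 10 days after it. It also reports that no limb regeneration was seen in them when they were followed for 6 months. The blastemas were collected 10 days after amputation from 5 animals of 8 months, and the juvenile limbs were the tissue removed from those 5 animals at amputation. Blastemas and juvenile limbs with the same number in the sample labels (2, 3, 5, 6 and 8) are taken here to share an animal. All animals belonged to 1 captive colony of *Ambystoma mexicanum* derived from wild animals, and no transgene, mutation or drug treatment is named for any group beyond sedation for amputation. The rule thus sets 2 animals against 5, and age, individual animal and anything else that separates the aged animals from the young ones cannot be told apart.

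The axolotl is a salamander that rebuilds an amputated limb. The stump is closed by a wound epidermis, beneath which proliferating progenitor cells gather as a blastema, and this mass later forms the cartilage, muscle, connective tissue and skin of the new limb. Bulk RNA sequencing of such tissue averages over all of these cell types, so fewer cells of a type and less RNA per cell cannot be told apart in any value below. An id here is a gene model of the axolotl transcriptome annotation. Many such models carry no gene name.

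None of the 22 ids was paired with a name in the count files, in the RefSeq gene table or in the copies of the study's tables used here, 1 of which is shortened, and so no function, position or sequence is given for any of them. The absence from the study's tables follows in part from the rule. The numbers of 5 of the 22 ids (22.7%) begin with U001, against 1050 of the 15773 ids with 5 or more counts in each blastema and juvenile limb (6.66%). These shares are not matched for level. The median juvenile level of the 22 lay above only 4.03% of the 15773 ids. The meaning of this prefix is not stated in the sources used here. The paper places AMEX60DDU001030024, which carries it, on a sequence not named as a chromosome. The ids without the prefix that the paper locates lie on chromosome arms.

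In the aged limbs, 13 of the 22 ids had no read at all in either animal, 4 had 1 count, 2 had 2 counts and 3 had 3 counts over both animals. Over all 22 ids the aged limbs held 17 counts, 8 in replicate 1 and 9 in replicate 2, the blastemas held 4937 counts and the juvenile limbs 6290. At the depth of the 2 aged limbs, the juvenile level would have given 2634 counts. The summed level of the 22 ids, in CPM (the counts-per-million value, with library sizes scaled by the trimmed mean of M values, TMM), was 0.355 and 0.594 in the aged limbs. It ranged from 58.5 to 79.6 (median 70.8) in the blastemas and from 52.2 to 83.4 (median 72.4) in the juvenile limbs. Depth was similar, with totals of 17666680 and 16836023 counts in the aged limbs, 13392223 to 20663627 in the blastemas and 12975883 to 18575093 in the juvenile limbs.

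**Figure D1:**
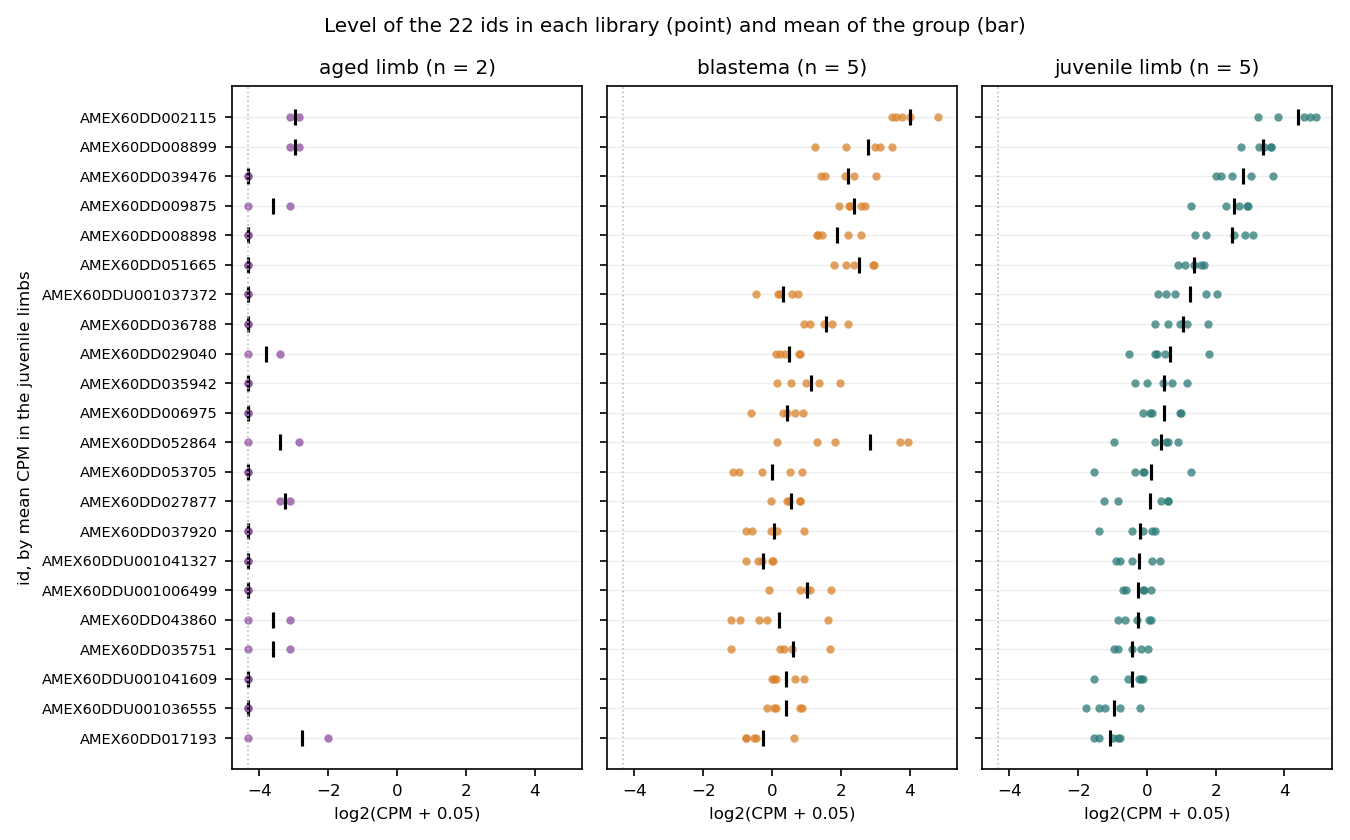
Level of each of the 22 ids, as log2(CPM + 0.05), in the 2 aged limbs (left), 5 blastemas (middle) and 5 juvenile limbs (right). Points are libraries, black bars mark the mean CPM of the group on the same scale, the dotted line marks 0 CPM, and the ids run from the highest juvenile mean (AMEX60DD002115, 20.9 CPM) to the lowest (AMEX60DD017193, 0.426 CPM). The aged points of 13 ids lie on the dotted line in both animals.

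Where the aged limbs had no count, the ratio was computed against a floor of 3 counts over the 2 libraries, which is 0.0797 CPM, and is a lower bound. With 1 to 3 counts over both, the ratio stands with its 95% exact counting interval in parentheses. Intervals and floors cover counting error only, and reads amplified by PCR without molecular identifiers are not independent molecules. CPM are not divided by gene length, so an id with more CPM than another need not have had more transcripts.

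The id with the most counts was AMEX60DD002115. It had 2 and 1 counts in the aged limbs, 142, 240, 350, 158 and 208 in the blastemas, and 618, 519, 403, 157 and 222 in the juvenile limbs. The blastemas averaged 16.3 ± 6.90 CPM, against 20.9 ± 8.86 CPM for the juvenile limbs (SD, n = 5 each). The juvenile level would have given 804 counts in the aged limbs, where 3 were found, a level 268-fold lower (91.5 to 1300.07) than in the juvenile limbs and 197-fold lower than in the blastemas.

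The ids AMEX60DD008898 and AMEX60DD008899 are consecutive numbers and the only such pair among the 22. AMEX60DD008899 had 2 and 1 counts in the aged limbs, 116, 170, 110, 57 and 30 in the blastemas, and 215, 266, 182, 162 and 106 in the juvenile limbs, and its aged level was 130-fold lower (44.3 to 631) than the juvenile one. AMEX60DD008898 had no count in either aged limb, 63, 97, 30, 32 and 35 in the blastemas, and 148, 124, 127, 44 and 52 in the juvenile limbs, at least 69.1-fold lower in the aged limbs. The counts of AMEX60DD008898 were between 0.272 and 1.17 times those of AMEX60DD008899 over the 10 libraries with counts of both, so the pair did not keep 1 ratio.

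A pair of further ids passed 200 counts at the juvenile level scaled to the aged limbs. AMEX60DD039476 had no count in the aged limbs, 45, 61, 100, 68 and 34 in the blastemas, and 167, 95, 82, 215 and 63 in the juvenile limbs, where its level was 6.94 ± 3.63 CPM (SD, n = 5), and it was at least 86.8-fold lower in the aged limbs. AMEX60DD009875 had 0 and 1 counts in the aged limbs, 40, 127, 58, 85 and 62 in the blastemas, and 155, 161, 73, 108 and 38 in the juvenile limbs. With 1 aged count its ratio to the juvenile limbs, 224-fold lower, had an interval of 40.0 to 8865, so its rank among the other ids is not determined by these counts.

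The other 17 ids had juvenile means of 0.426 to 2.51 CPM. Of the 13 ids with no aged count, the bound on the ratio to the juvenile limbs ran from at least 6.00-fold (AMEX60DDU001036555) to at least 86.8-fold (AMEX60DD039476), with a median of 16.8. AMEX60DD051665 stood at at least 31.3-fold lower, AMEX60DDU001037372 at 29.2, AMEX60DD036788 at 24.7, AMEX60DD006975 at 17.2, AMEX60DD035942 at 16.8, AMEX60DD053705 at 13.7 and AMEX60DD037920 at 10.5. The bounds of AMEX60DDU001006499 (10.2), AMEX60DDU001041327 (9.77) and AMEX60DDU001041609 (8.51) were lower because their juvenile limbs held few counts, 6 to 21 in any library. Against the blastemas the bound for AMEX60DD051665 was larger, at least 67.2-fold, and that for AMEX60DDU001006499 was at least 25.5-fold.

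The remaining ids had 1 to 3 aged counts. AMEX60DD029040 had 1 and 0 counts in the aged limbs and was 56.5-fold lower (9.98 to 2249) than in the juvenile limbs, and AMEX60DD043860 and AMEX60DD035751 had 0 and 1 counts each and were 29.3-fold (5.09 to 1174) and 26.8-fold (4.64 to 1075) lower. AMEX60DD052864, with 2 and 0 aged counts, was 24.5-fold lower (6.63 to 205), and AMEX60DD027877, with 1 and 1, was 18.8-fold lower (5.07 to 158). The smallest ratio belonged to AMEX60DD017193. It had 0 and 3 counts in the aged limbs, 7, 32, 8, 7 and 7 in the blastemas, and 11, 10, 5, 5 and 8 in the juvenile limbs, and its aged level was 5.44-fold lower (1.73 to 27.5) than the juvenile one.

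**Figure D2:**
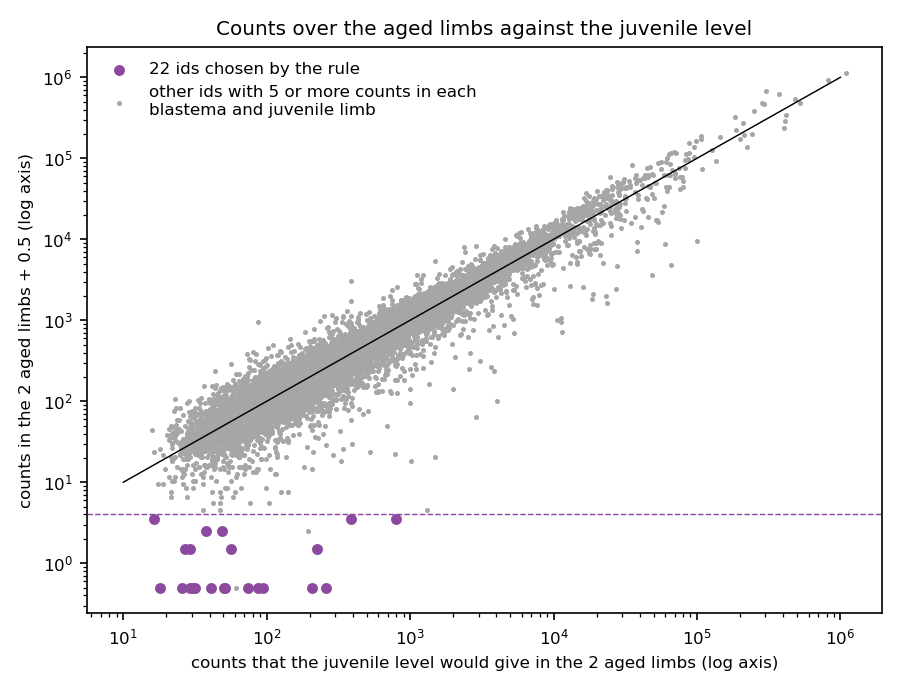
Raw counts over the 2 aged limbs plus 0.5 (vertical, log axis) against the counts that the juvenile level would have given in them (horizontal, log axis) for the 15773 ids with 5 or more counts in each blastema and juvenile limb. Purple points are the 22 ids, the solid line marks equal values and the dashed line marks 4 aged counts including the offset, above which no id was chosen. The 22 ids lie between 16.3 and 804 on the horizontal axis, and the grey points below the dashed line are the ids left out as listed, BTBD8 and TCF23.

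Most of the 22 ids sat at the low end of the counts, where a small number of reads decides whether an id is chosen. The juvenile mean of 20 of the 22 was below the median of the 15773 ids, 9.54 CPM, and the smallest count over the 10 blastemas and juvenile limbs was exactly 5, the least allowed, in 6 of them. Over the 15773 ids the median count in the 2 aged limbs was 361 and the 1st percentile was 21. The ratio of aged to juvenile level had a median of 1.02, and was below 1/10 in 0.374% of them. Just outside the limit lay 3 ids with 4 aged counts, of which AMEX60DD021537, with 4 and 0 counts in the aged limbs, averaged 93.5 CPM over the blastemas, against 37.5 CPM in juvenile limbs, above every chosen id. The other ids with 4 aged counts, AMEX60DD054625 and AMEX60DD054983, averaged 1.28 and 0.975 CPM in the juvenile limbs. Another 8 ids met the aged limit but had a smallest count of 4 in the other libraries, with juvenile means of up to 1.56 CPM (AMEX60DD049980). Of these, AMEX60DDU001030024 (LOC112547415.222), AMEX60DD049980 (LOC111196905) and AMEX60DD052812 are also listed in the study's tables. They would have been left out at any count.

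Each aged limb alone was less selective. Of the 15773 ids, 79 had at most 3 counts in aged animal 1, 116 in aged animal 2, and 29 in each. Conversely, 84 of the 15773 ids, not counting the 22 or the listed BTBD8 and TCF23, had a ratio of aged to juvenile level at or below 0.184. That is the highest ratio among the 22, and all of the 84 had more than 3 aged counts.

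The levels of the 22 ids varied between animals about as much as those of ids in the same quintile of mean CPM. The lowest quintile held 17 of the 22 in the juvenile limbs and 15 in the blastemas, and levels were not matched within a quintile. Their coefficient of variation over the juvenile limbs ran from 21.7% (AMEX60DD051665) to 76.5% (AMEX60DD053705), with a median of 41.3%, and 13 of 22 were above the median of the ids in the same quintile of mean CPM. Over the blastemas it ran from 20.97% (AMEX60DD009875) to 101% (AMEX60DD043860), with a median of 42.6%, and 11 of 22 were above that median. AMEX60DD052864 followed with 94.0% over the blastemas, where replicates 3 and 6 were high.

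Ids beside the chosen ones were examined to see whether the low aged counts extended to them. Neighbours are here the 5 ids on either side in the order of id numbers, which gives no distance and no position in the genome. Of 210 such ids other than the 22, 71 had no count in any library and 48 had 5 or more counts in each blastema and juvenile limb, beside 17 of the 22. The ratio of aged to juvenile level of these 48 had a median of 0.915, from 0.298 to 1.86, and 3 of them (6.25%) were below 1/2, against 4.72% of the 15773 ids. None of the 48 had 10 or fewer aged counts. Over the 15773 ids the 1st percentile was 21, so few such ids would be met among any 48. An id with 3 or fewer would itself have been chosen or listed, so this absence was partly fixed by the rule.

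**Figure D3:**
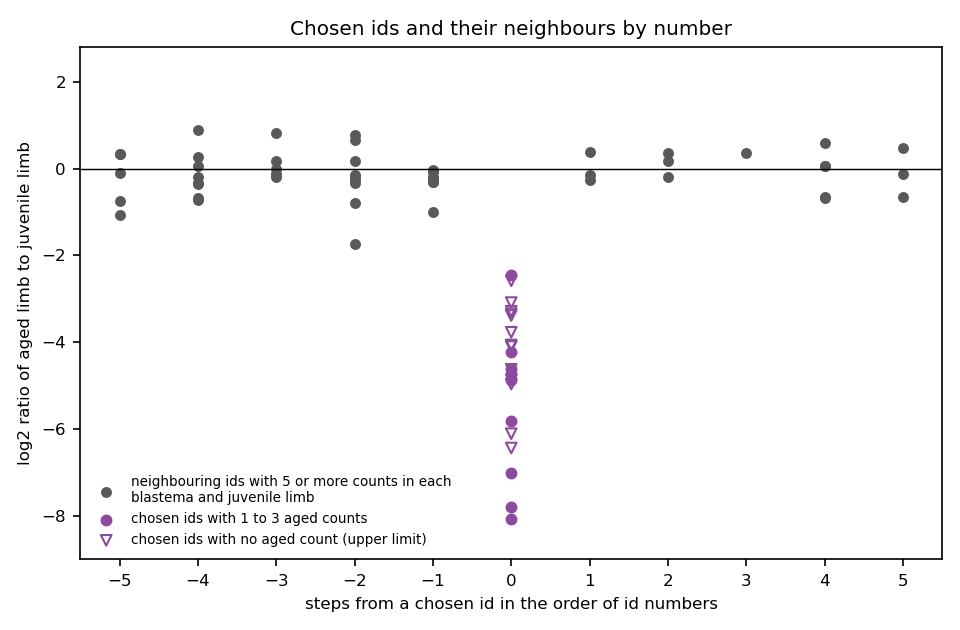
Log2 ratio of aged to juvenile level (vertical) of the 22 chosen ids, at 0 on the horizontal axis, and of neighbouring ids up to 5 steps away in the order of id numbers that had 5 or more counts in each blastema and juvenile limb. Filled purple points are chosen ids with 1 to 3 aged counts, open triangles are upper limits for those with none, and the horizontal line marks equal levels. The neighbours spread around the line, from a ratio of 0.298 to 1.86, while the chosen ids lie at or below 0.184 by the rule.

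The ids on either side of AMEX60DD002115 had counts in both aged limbs. AMEX60DD002114 had 678 and 500 counts in the aged limbs, 2061 in all blastemas and 5678 in all juvenile limbs, and its juvenile level was 2.02 times its aged level. AMEX60DD002116 had 1574 and 903 counts in the aged limbs, 2108 in all blastemas and 6511 in all juvenile limbs, with a juvenile level 1.10 times the aged one. All 5 ids preceding AMEX60DD036788 had between 180 and 1654 counts in each aged limb, and their juvenile levels were between 1.03 and 1.15 times their aged levels. On its other side, AMEX60DD036789 had 5 and 9 aged counts and a juvenile level 2.30 times its aged level. AMEX60DD036793 had no aged count and 67 counts summed over the juvenile limbs. Neither had 5 or more counts in each blastema and juvenile limb. Neighbours with a gene symbol included MANSC1 and PARP12 beside AMEX60DD006975, with 608 and 722 counts and 103 and 90 counts in the aged limbs. PDLIM7, beside AMEX60DD027877, had 919 and 317 aged counts, and its juvenile level was 2.10 times its aged level. AMEX60DD002114 and PDLIM7 are among the 3 of the 48 neighbours whose ratio of aged to juvenile level was below 1/2.

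The third was AMEX60DD017191, and the ids around it are described here after their values were seen. AMEX60DD017191 had 13 and 1 counts in the aged limbs, 108 in all blastemas and 112 in all juvenile limbs, the lowest ratio among the 48. AMEX60DD017190 and AMEX60DD017192 had no aged count, 4 and 35 counts summed over the blastemas, and 28 and 51 summed over juvenile limbs. These ids precede AMEX60DD017193, and the ids directly after it went the other way. AMEX60DD017194 had 68 and 35 aged counts and 47 summed over juvenile limbs. AMEX60DD017195 had 73 and 43 aged counts and 55 summed over juvenile limbs. Their juvenile levels were 0.191 and 0.199 times their aged levels. Neither had 5 or more counts in each blastema and juvenile limb. In all, 7 neighbours with 10 or more counts over the juvenile limbs had no aged count, beside 5 of the 22 ids, and none of the 7 had more than 67 juvenile counts. Between 10 and 67 juvenile counts, these were 7 of 30 neighbours (23.3%). Of all 13706 ids in that range, 3826 (27.9%) had no aged count, so the share among neighbours was not higher.

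The blastemas were then compared with the juvenile limbs, the one contrast whose direction the rule did not fix, although it asked for 5 counts in every library of both groups. The test was edgeR's quasi-likelihood F test with Benjamini-Hochberg adjustment over all 19961 ids tested, and an id counted as called where its adjusted p lay under 0.05 and its log2 fold change was beyond 1 in either direction. Of the 21 chosen ids that passed the filter on low counts, 2 were called higher in the blastemas and 0 lower. Of all ids tested, 371 (1.86%) were called higher and 1117 (5.6%) lower. Among the 15759 tested ids with 5 or more counts in each library, 328 (2.08%) were called higher and 471 (2.99%) lower. At an unadjusted p under 0.05, 4 of the 21 were higher and 1 lower, against 11.6% higher and 11% lower of those 15759 ids. DESeq2 also called 2 of the 22 higher and 0 lower, against 3.14% higher and 3.94% lower of 15725 ids with 5 or more counts in each library. The median log2 fold change was 0.22 over the 21 ids, 0.05 over the tested ids with 5 or more counts in each library and -0.02 over all ids tested, and 11 of the 21 values were above 0. The median over the 21 ids was 0.082 with the animal as a block and -0.15 with library totals. When 1 library was left out it ran from -0.076, without blastema 6, to 0.35, without juvenile limb 6, so its sign was not stable.

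AMEX60DD052864 had 1.05, 15.6, 2.41, 13.1 and 3.49 CPM in the blastemas (replicates 2, 3, 5, 6 and 8), against 1.47, 1.42, 0.468, 1.84 and 1.13 CPM in the juvenile limbs. Blastemas 3 and 6 stood far above the others, and blastema 2 lay within the juvenile range. Its log2 fold change was 2.41 (SE 0.68, adjusted p = 0.0459 by edgeR), and it was higher in the blastema of 4 of the 5 animals. With the animal as a block the value was 1.98 (adjusted p = 0.074), and without blastema 3 it was 1.91 (adjusted p = 0.111), so neither fit made the call.

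AMEX60DD051665 had 7.56, 3.44, 5.23, 7.76 and 4.43 CPM in the blastemas, against 2.93, 2.11, 3.14, 1.84 and 2.52 CPM in the juvenile limbs. The groups did not overlap, and each of the 5 animals had more in its blastema than in its limb. The log2 fold change was 1.12 (SE 0.31, adjusted p = 0.0446 by edgeR). With the animal as a block it was 1.07 (adjusted p = 0.0929), which ended this call as well. When 1 library was left out, AMEX60DD051665 was called only without blastema 3 or without blastema 8. AMEX60DD052864 was called only without blastema 2, 5 or 8. Neither was called without blastema 6 or when any single juvenile limb was left out.

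Several ids with fewer counts had changes of similar size that did not pass the test. The log2 fold change was 1.38 (SE 0.48, adjusted p = 0.103) for AMEX60DDU001036555, 1.26 (SE 0.43, adjusted p = 0.0945) for AMEX60DDU001006499 and 1.02 (SE 0.55, adjusted p = 0.279) for AMEX60DD035751. In the other direction it was -1.001 (SE 0.45, adjusted p = 0.195) for AMEX60DDU001037372, -0.66 for AMEX60DD039476, -0.63 for AMEX60DD008898, -0.61 for AMEX60DD008899 and -0.41 for AMEX60DD002115. Of the ids with the most counts, the consecutive pair thus had values of the same sign and size, and neither passed the test (adjusted p = 0.364 for AMEX60DD008898 and 0.346 for AMEX60DD008899).

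The blastemas did not overlap the juvenile limbs for 4 of the 22 ids, AMEX60DD017193, AMEX60DD051665, AMEX60DDU001036555 and AMEX60DDU001041609, all higher in the blastemas. Of the 15773 ids, 1363 (8.64%) did not overlap, a share that takes higher and lower ids together and was not split by direction. With scaling by DESeq2's size factors 3 of the 22 did not overlap, without AMEX60DD017193, and with library totals 0. The share over all ids was not computed under these scalings. AMEX60DD017193, the id left out by the filter, had a difference of 0.72 in mean log2(CPM + 0.05). Its exact two-sided permutation p was 0.00794, or 0.0625 where labels were exchanged between the 2 libraries of an animal alone. Each is the smallest p that its test can give. It follows from the lack of overlap and adds no further evidence. The lowest blastema and the highest juvenile limb were both at 0.538 CPM, and under DESeq2's size factors, where the groups overlapped, the exact p was 0.0397 (0.125 within animals). Under library totals the difference was 0.34 and the exact p was 0.46 (0.375 within animals). These p-values are for 1 id and are not adjusted over other ids. The edgeR fits with no filter and with all 12 libraries, and DESeq2, kept AMEX60DD017193 and did not call it.

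**Figure D4:**
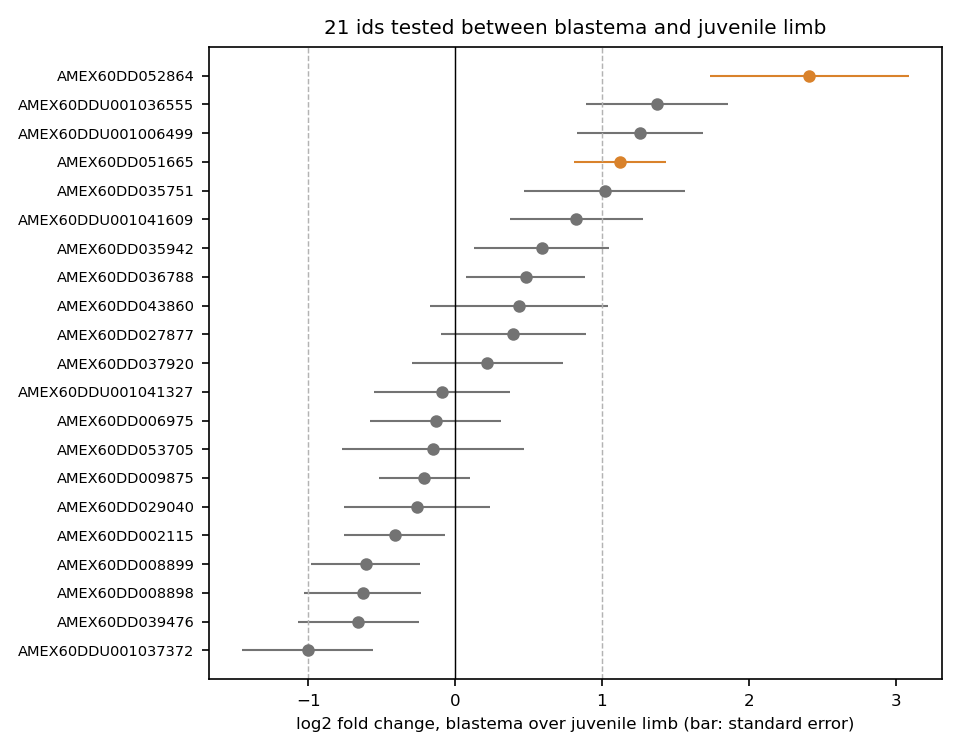
Log2 fold change of the blastemas over the juvenile limbs (horizontal, bars show the standard error of the fit) for the 21 chosen ids that passed the filter on low counts. Dashed lines mark the fold change threshold of 1 in either direction and orange points are the ids called, AMEX60DD052864 (2.41) and AMEX60DD051665 (1.12). The values run from -1.001 to 2.41, and 11 of 21 lie above 0.

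Tissue markers were summed to see what else differed between the libraries. Their ids were paired with symbols in the study's tables of called genes, of coexpression modules and of genes correlated with the aged limbs. They are therefore no independent evidence on the contrast of blastema with juvenile limb, or on the aged limbs. The 49 skeletal muscle ids summed to 32274 and 4392 CPM in the aged limbs, 147 to 408 in the blastemas and 14816 to 66319 in the juvenile limbs, so aged limb replicate 2 lay below every juvenile limb. The 3 bone ids summed to 1.33 and 3.30 CPM in the aged limbs, 1.24 to 5.22 in the blastemas and 14.1 to 28.7 in the juvenile limbs. The 9 epidermal ids (10748 and 10268 CPM) and the 3 peripheral nerve ids (56.5 and 56.8 CPM) of the aged limbs were within the juvenile ranges, 5952 to 17056 and 53.6 to 167. The 4 ids paired with TNC, FN1, LUM or TWIST1 summed to 150 and 223 CPM in the aged limbs. They summed to 1105 to 4039 CPM in the blastemas and 191 to 297 in the juvenile limbs, so aged limb replicate 1 lay below every juvenile limb. The part of these differences in the low aged counts was not tested.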

How the data were processed

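RNA from 12 tissue samples was depleted of ribosomal RNA and sequenced as stranded paired-end libraries. Per the paper's methods and the submitters' processing notes, the authors trimmed reads with Trimmomatic 0.39, aligned them to AmexG_v6.0-DD with STAR 2.7.9a and counted them per gene of AmexT_v47 with featureCounts. The deposited values are raw counts, not normalized, and all 12 files of single libraries equalled the joint table. How strand, multimapping reads and gene overlaps were handled in counting is not given in the sources used here, so counts of near-identical or overlapping genes are uncertain. The sampled limb is called differently in the labels and in parts of the paper, and was not settled.

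Groups came from the sample labels. The 22 ids and the lists were chosen with earlier results of these data known. All 22 are named, following a rule that names every id of a set of 30 or fewer. CPM used TMM over all 12 libraries. Blastemas and juvenile limbs were compared in edgeR 4.0.16 (R 4.3.3) with TMM, filterByExpr and the quasi-likelihood F test, where the study used DESeq2. The thresholds were those of the study's methods. A standard error is the log2 fold change divided by the square root of F. The main fit was tested on simulated counts without pairing. The planted changes were all larger than that of AMEX60DD051665, so smaller changes, the block and the other settings were not covered.

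The paper took blastemas and juvenile limbs from 5 juveniles, and that those with the same number share an animal is read from the sample labels. Their deviations from the group means correlated at 0.0301 to 0.205 (median 0.158, 5 pairs), against a median of -0.0211 for the 20 other pairs. Blocked fits are given where they change a call. Alternatives were DESeq2 1.42.0, DESeq2 size factors, other filters, all 12 libraries, the block, no fold change threshold, other limits in the choice of ids, and leaving out each library. Library totals in the comparison of blastema with juvenile limb, the count of ids without overlap under each scaling and the permutation test under other scalings were added after seeing the data. No reference sequence of the build was used here.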

Additional observations from a re-analysis of the deposited data

Results flagged for a closer look

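The CPM of each of the 22 ids were examined for a library standing apart from the other 4 of its group, by Dixon's criterion, in the blastemas and in the juvenile limbs. Of 44 groups examined 5 had such a library, where chance flags about 1 in 20 groups of normally distributed values, or 2.2 of 44. Whether these CPM are normally distributed was not checked, so that number is a rough guide. In each case the library was the highest, and the rule, which asked for 5 counts in every library, limited low values. AMEX60DD002115 had 28.2 CPM in blastema replicate 5, against 11.3 to 16.1 CPM in the other blastemas. AMEX60DD017193 had 1.51 CPM in blastema replicate 3, against 0.538 to 0.670 CPM, and AMEX60DD043860 had 3.07 CPM in blastema replicate 6, against 0.388 to 0.847 CPM. AMEX60DD029040 had 3.44 CPM in juvenile limb replicate 6, against 0.644 to 1.38 CPM in the other juvenile limbs, and AMEX60DD053705 had 2.39 CPM in juvenile limb replicate 3, against 0.293 to 0.889 CPM.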

How the results depend on the processing

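The number of ids chosen was 22. It was 13 with no aged count allowed, 53 with up to 10, 10 with at least 10 counts in each other library and 34 with at least 3. With counts scaled by TMM it was 21, of which 18 were among the 22. Leaving out 1 library gave 22 to 110 ids, with 110 without aged limb replicate 1 and 73 without replicate 2. The median ratio of aged to juvenile level, with ids at 0 set to the floor, was 0.0406, and 0.0829 to 0.116 without 1 aged limb, where the floor of a single library is higher.

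The number of the 22 ids called between blastema and juvenile limb was 2. It was 1 with no filter and 1 with all 12 libraries in the fit, 0 with the replicate block, 0 with library totals and 0 to 2 when leaving out 1 library. It stayed at 2 with DESeq2, with its size factors, with a mean of at least 10 counts and with no fold change threshold. Over all ids, the block called 301 higher and 1093 lower of 19961 tested. All 12 libraries gave 395 and 1461 of 25263, and leaving out 1 library 230 to 402 higher and 842 to 1405 lower. Calls were thus a small share of all ids, and shifts between 0 and 2 are not read as a result about the 22 ids. Each of the 21 ids tested was also followed over 16 alternative fits by edgeR or DESeq2, without the setting of a mean of at least 10 counts. Over these 16, AMEX60DD052864 kept a positive value (1.91 to 2.73, adjusted p = 4.62e-07 to 0.111) and was called in 7. AMEX60DD051665 likewise kept a positive value (0.72 to 1.27, adjusted p = 0.0231 to 0.14) and was called in 4. The replicate block changed no other call.

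Library totals moved the median log2 fold change of all ids tested to -0.38, against -0.02 with TMM, and their calls to 188 higher and 2064 lower, against 371 and 1117. Library totals also left 0 of the 22 ids without overlap, where the share over all ids was not computed, and turned AMEX60DD037920 to -0.15. Without a filter, 981 were called higher and 2279 lower. Values near 0 changed sign when 1 library was left out. They ranged from -0.25 to 0.077 for AMEX60DD006975, -0.46 to 0.28 for AMEX60DD029040, -0.11 to 0.38 for AMEX60DD037920, -0.40 to 0.67 for AMEX60DD043860, -0.50 to 0.40 for AMEX60DD053705 and -0.23 to 0.17 for AMEX60DDU001041327. The cause was not tested.

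With 2 aged animals and as few as 5 counts in the other libraries, depth limits most of the ratios to lower bounds, and no paired analysis was possible for the aged limbs because they come from other animals.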
